A study of Arabidopsis thaliana with 15 samples.

Results

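The genes described here are 40 plastid-encoded genes of Arabidopsis thaliana that serve gene expression and housekeeping in the chloroplast. They were chosen by identifier, from the plastid rps, rpl and rpo genes, matK, clpP, accD, the ycf genes, cemA and ccsA. All 40 had a row among the 21777 genes of the deposited table, and 34 reached the mean of 10 normalized counts over 15 libraries that was required for testing. RNA came from shoots of seedlings aged 12 days, grown in 16 h days and 8 h nights, with 3 libraries for each of 5 genotypes. The genotypes were WT, the single mutants rps6a (mutated in RPS6A) and rps6b (mutated in RPS6B) and a pair of transgenic lines. Both genes encode the ribosomal protein eS6, found in the small subunit of cytosolic ribosomes. The transgenic lines eS6A-HA and eS6A-Δ6SA were both mutant in rps6a and rps6b and carried the transgene for which they are named. No treatment was given, and the promoter of the transgenes, the number of lines and whether the libraries of a group came from separate growths are not given in the sources used here. The p-values below therefore measure only the spread between these libraries, which may be technical.

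The chloroplast keeps a small genome of its own. Its rps and rpl genes code for proteins of the small and large subunit of the bacterial-type plastid ribosome, which is completed by proteins imported from the cytosol. Its rpo genes code for the core of the plastid-encoded RNA polymerase, which reads most photosynthesis genes together with nuclear-encoded sigma factors, while a phage-type polymerase encoded in the nucleus reads many housekeeping genes. MatK helps to splice plastid introns, ClpP is a subunit of the stromal Clp protease, AccD a subunit of the acetyl-CoA carboxylase of fatty acid synthesis, and CcsA takes part in attaching haem to c-type cytochromes. Ycf3 and Ycf4 assist the assembly of photosystem I. Many plastid genes are transcribed together with their neighbours.

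The deposited table and the reference paired 5 of the 40 identifiers with a product. Among them are ATCG00530 (cemA, for a protein of the chloroplast envelope), ATCG00660 (rpl20), ATCG00670 (clpP) and ATCG01310 (rpl2). In the reference, rpl20 lies between rps18 and rps12 with clpP next. There cemA lies between ycf4 and petA. Which of the neighbouring identifiers belongs to which of these genes is stated neither by the table nor by the reference, so the other members are named by identifier and grouped by stretches of identifiers that follow each other in the table.

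The 30 well measured members had means over all libraries from 1246 (ATCG00050) to 48000 (ATCG00040) normalized counts, which are not corrected for gene length. The other 4 tested members were low, with means from 10.5 (ATCG01240) to 15.6 (ATCG00860). Just outside the filter was ATCG00830 with a mean of 9.63, and the other untested members, ATCG00840, ATCG00900, ATCG00905, ATCG01230 and ATCG01300, were lower still. In each of the 4 low members the highest 2 libraries were WT replicate 1 and rps6a replicate 1. ATCG00860, for example, had 48.6 and 54.4 normalized counts in these and a median of 9.96 over all libraries. The low member ATCG01310, rpl2, has 2 entries in the plastid genome of the reference, and 100% of its 75-base stretches occur elsewhere in that genome, so its reads cannot be assigned to a copy. None of the 4 low members passed the test in any comparison.

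Gene reads per library ranged from 5726410 to 10009723. The level of RPS6A (AT4G31700) was 69.8 ± 13.7 normalized counts in rps6a, against 952 ± 120 in WT (SD, n = 3). That of RPS6B (AT5G10360) was 266 ± 12.2 in rps6b, against 931.8 ± 41.3 in WT. Both mutants were thus low for the gene of their label. The other gene of the pair was above WT without overlap, RPS6B at 1222 ± 29.9 in rps6a and RPS6A at 1724 ± 125 in rps6b. Between the transgenic lines RPS6A differed without overlap, at 1827 ± 57.4 for eS6A-HA against 1239 ± 137 for eS6A-Δ6SA. RPS6B was low in both lines, at 86.7 ± 12.8 and 64.3 ± 5.11 in the same order. The shoot markers RBCS1A, CA1 and LHCB1.1 were at 13130 normalized counts or more in every library. LHCB1.1 ranged from 18900 to 19970 in rps6a, below the 22230 to 25430 of WT without overlap, and from 22460 to 23480 in rps6b. CA1 had 13620 ± 834 in rps6a and 14360 ± 316 in rps6b against 16070 ± 1648 in WT, with overlap. Of 6 root markers listed, 5 were used, and WOX5, CASP1, COBL9 and NRT2.1 stayed at or below 6.64 in every library. Within that low range their sum was 10.9 to 14.1 in rps6a, above the 0.908 to 5.72 of WT without overlap, and 5.70 to 8.98 in rps6b. WOX5 alone was at 2.51 to 4.84 in rps6a and 3.14 to 4.49 in rps6b, against 0.908 at most in WT. NRT2.1 was at 0 in every library of WT, eS6A-HA and eS6A-Δ6SA. The fifth, PYK10, a beta-glucosidase abundant in roots, had 4104 ± 648 normalized counts in rps6a and 2365 ± 85.7 in rps6b, against 1574 ± 390 in WT. Its level was 1936 ± 152 in eS6A-Δ6SA and 1585 ± 64.3 in eS6A-HA. The summed level of the 5 markers per library was 3593 to 4839 for rps6a, 2291 to 2460 for rps6b and 1309 to 2026 for WT, and it was 1775 to 2080 for eS6A-Δ6SA and 1529 to 1656 for eS6A-HA. CASP1 was at 4.82 ± 1.61 in rps6a and 1.36 ± 0.86 in rps6b, against 2.06 ± 1.93 in WT, with overlap. RBCS1A had 52210 ± 14140 in rps6a and 50870 ± 2743 in rps6b, against 52020 ± 11220 in WT, also with overlap. PYK10 and WOX5 were thus higher in both single mutants, while CASP1 and RBCS1A overlapped WT. In rps6a the sum of the root markers without PYK10, which includes WOX5, was higher and LHCB1.1 lower. The part of these differences in the results below was not tested.

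In rps6b the plastid expression genes were higher than in WT. Of the 34 tested members, 20 rose, 0 fell and 14 did not pass the test, where over all 16335 tested genes 23.3% were called, 11.6% higher and 11.7% lower. A call is an adjusted p under 0.05 in limma with Benjamini-Hochberg adjustment over all tested genes. The members' median log2 difference was 0.24, against -0.01 over all genes. The rises were moderate, from 0.22 (ATCG00740) to 0.70 (ATCG00040) on the log2 scale. In bulk shoots, more plastids or plastid-rich cells and more RNA per plastid cannot be told apart, and the same holds for fewer and less where values fell.

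ATCG00040 had 42650, 41050 and 38720 normalized counts in the WT libraries and 61910, 71860 and 65820 in those of rps6b. Every rps6b library was far above every WT library. The log2 difference was 0.70 (SE 0.07, limma adjusted p 2.64e-10), a rise of 62.9%. The largest block of rises was the stretch from ATCG00740 to ATCG00820, with 9 well measured identifiers in a row, of which 8 rose.

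ATCG00780 stands for this stretch, with 5166, 5256 and 4939 normalized counts in WT and 7797, 7730 and 7798 in rps6b. The rps6b libraries differed from each other by less than those of WT and lay well above them. The log2 difference was 0.60 (SE 0.07, limma adjusted p 1.88e-08). The neighbours ATCG00760, ATCG00790, ATCG00800, ATCG00810 and ATCG00820 rose by 0.46, 0.47, 0.56, 0.46 and 0.59 on the log2 scale, and ATCG00740, at the other end, by 0.22. The rise was thus larger in ATCG00780 and these 5 neighbours than in ATCG00740, a description with no test of the difference.

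The remaining rises in rps6b were spread over the plastid genome. ATCG01130 rose by 0.53 and its neighbour ATCG01120 by 0.45. In the stretch from ATCG00640 to ATCG00670, ATCG00650 rose by 0.45, clpP by 0.33 and ATCG00065 by 0.23, while rpl20 at 0.21 and ATCG00640 at 0.16 did not pass. In the stretch from ATCG00160 to ATCG00190, ATCG00170 rose by 0.48, ATCG00160 by 0.32 and ATCG00190 by 0.23, while their neighbour ATCG00180 was at 0.00 (SE 0.08). ATCG00050 rose by 0.29, ATCG01020 by 0.27 and ATCG00360 by 0.25. The members without a call included cemA at 0.07, ATCG00520 at 0.07, ATCG00500 at 0.07, ATCG01040 at 0.00 and ATCG00330 at -0.14, the only well measured member with a negative value.

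For clpP, the protease subunit, the WT libraries had 14690, 16190 and 14310 normalized counts and the rps6b libraries 18450, 19960 and 18440. The groups did not overlap. The log2 difference was 0.33 (SE 0.06, limma adjusted p 0.00018). Of the 19 rises named here, 13 passed the test whichever WT or rps6b library was left out. ATCG00740 lost its call without WT replicate 2 or rps6b replicate 1, and ATCG01020 without WT replicate 3 or rps6b replicate 2. ATCG00160 lost it without WT replicate 1 or 2 or rps6b replicate 3, and ATCG00190 without WT replicate 1 or 2 or rps6b replicate 1 or 3. ATCG00065 lost it without WT replicate 2 or 3 or any rps6b library, and ATCG01120 without WT replicate 1 or 3 or any rps6b library. The count without 1 library was 16 to 18.

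**Figure D1:**
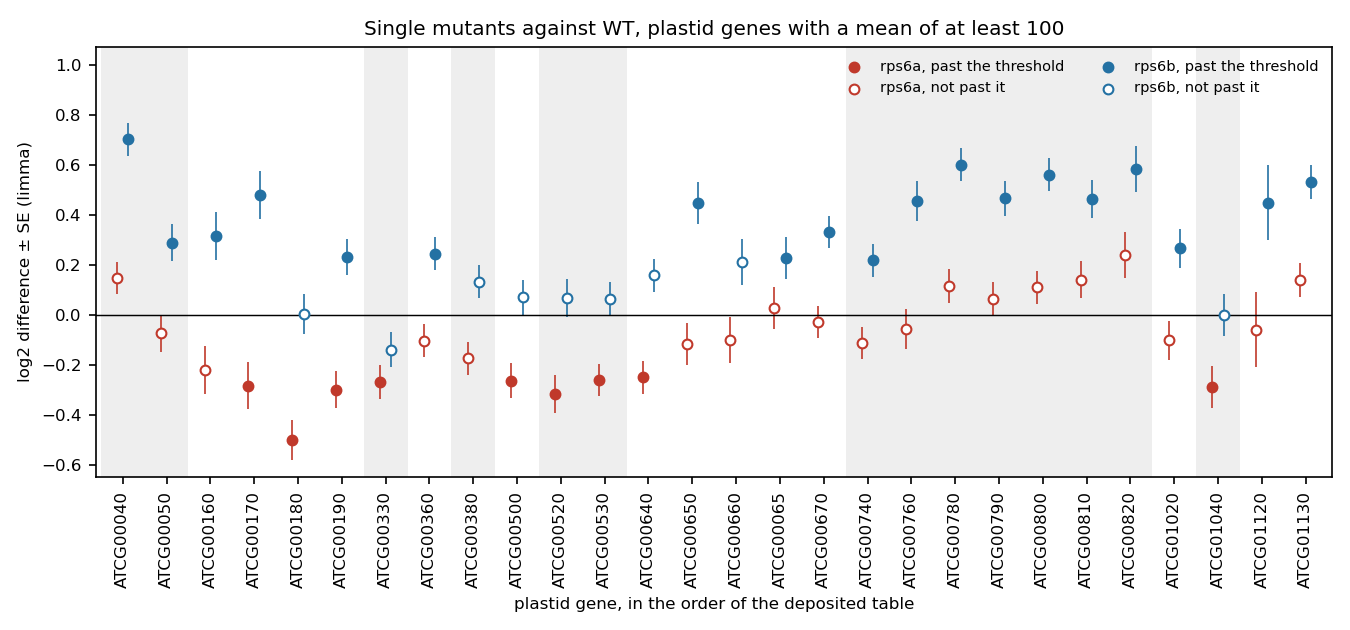
Log2 difference from WT (y axis, limma, ± SE) of 28 plastid genes with a mean of at least 100 normalized counts, in the order of the deposited table (x axis), for rps6a (red) and rps6b (blue). Filled points passed the adjusted p of 0.05, and grey and white bands mark runs of adjacent identifiers. The rps6b points of ATCG00760 to ATCG00820 lie between 0.46 and 0.60, and the lowest rps6a point is ATCG00180 at -0.50.

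In rps6a the same genes were not raised on the deposited scale. Of the 34 tested members, 0 rose, 9 fell and 25 did not pass, against 21.2% of all genes called, 10.4% higher and 10.8% lower. The members' median was -0.09. With values scaled to the spike-in RNAs the direction turned, to 11 members higher and 0 lower. On that scale 35.1% of all genes were called higher and 1.82% lower, so the members' count was close to the background. With values scaled to the plastid genes it was 9 higher and 1 lower, where 22.8% of all genes were called higher and 4.75% lower. The well measured members are among the plastid genes that set this scale. It therefore removes part of any shift they share, in every comparison given below as well. The falls on the deposited scale ran from -0.25 (ATCG00640) to -0.50 (ATCG00180).

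ATCG00180 had 9385, 10200 and 11680 normalized counts in WT and 6801, 7456 and 7788 in rps6a. All rps6a libraries lay below all WT libraries. The log2 difference was -0.50 (SE 0.08, limma adjusted p 1.64e-05), and the value fell by 29.3%. It was -0.14 (adjusted p 0.41) with values scaled to the spike-in RNAs, and it was the member that was also lower with values scaled to the plastid genes. Its neighbours ATCG00170 and ATCG00190 fell by 0.28 and 0.30, and ATCG00160 at -0.22 did not pass.

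For cemA, the WT libraries had 13530, 12810 and 12260 normalized counts and the rps6a libraries 10970, 10140 and 11110. The groups did not overlap. The log2 difference was -0.26 (SE 0.07, limma adjusted p 0.0031) and turned to 0.10 (adjusted p 0.45) with values scaled to the spike-in RNAs. ATCG00520, next to cemA, fell by 0.32, ATCG01040 by 0.29, ATCG00330 by 0.27, ATCG00500 by 0.26 and ATCG00640 by 0.25, and each of these, like ATCG00170 and ATCG00190, turned positive on the spike-in scale without passing the test there. The libraries of rps6a and WT overlapped for ATCG00520 and ATCG01040.

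In rps6a no member of the stretch from ATCG00740 to ATCG00820 passed the test. Its values ran from -0.11 (ATCG00740) to 0.24 (ATCG00820). ATCG00040 was at 0.15 (SE 0.07, adjusted p 0.11), with 45360, 43260 and 46990 normalized counts, all above the WT libraries. Of the 9 falls, ATCG00180, ATCG00190, ATCG00330, ATCG00500, ATCG00520 and cemA passed whichever library was left out. ATCG00170 lost its call without any of the 3 WT libraries and without rps6a replicates 1 and 2, ATCG00640 without WT replicate 2, and ATCG01040 without WT replicate 2 or rps6a replicate 2. The count of members called was 6 without WT replicate 2, all lower. It was 13 without rps6a replicate 3, with 12 lower and 1 higher. Without WT replicate 1, 8 were lower and 2 higher.

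The 2 single mutants were also compared directly. In rps6a against rps6b, 0 members were higher, 25 were lower and 9 did not pass, where 2.92% of all genes were called, 1.30% higher and 1.62% lower. The members' median was -0.36, and all 30 well measured members had a negative value. The count of members called depended on the scale, with 3 members higher and 0 lower on the spike-in scale and 2 higher and 3 lower on the plastid-gene scale. The members' median was 0.06 and -0.01 on these scales. Of all genes, 42.3% were called higher and 0.251% lower on the spike-in scale, and 41.6% higher and 0.41% lower on the plastid-gene scale. Of the members called, ATCG00170 had the largest difference, with 6190, 6725 and 7050 normalized counts in rps6a and 13430, 9396 and 11380 in rps6b. These libraries did not overlap, and those of rps6b were widely spread. The log2 difference was -0.76 (SE 0.10, limma adjusted p 2.18e-05), and it was -0.34 (adjusted p 0.052) on the spike-in scale. ATCG00170 and ATCG00190 were the members that both fell in rps6a and rose in rps6b against WT, comparisons that share the WT libraries. ATCG00810 lost its call without rps6a replicate 3, and ATCG01020 without rps6a replicate 1 or 2 or rps6b replicate 2. ATCG00820 lost it without replicate 2 or 3 of either mutant.

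**Figure D2:**
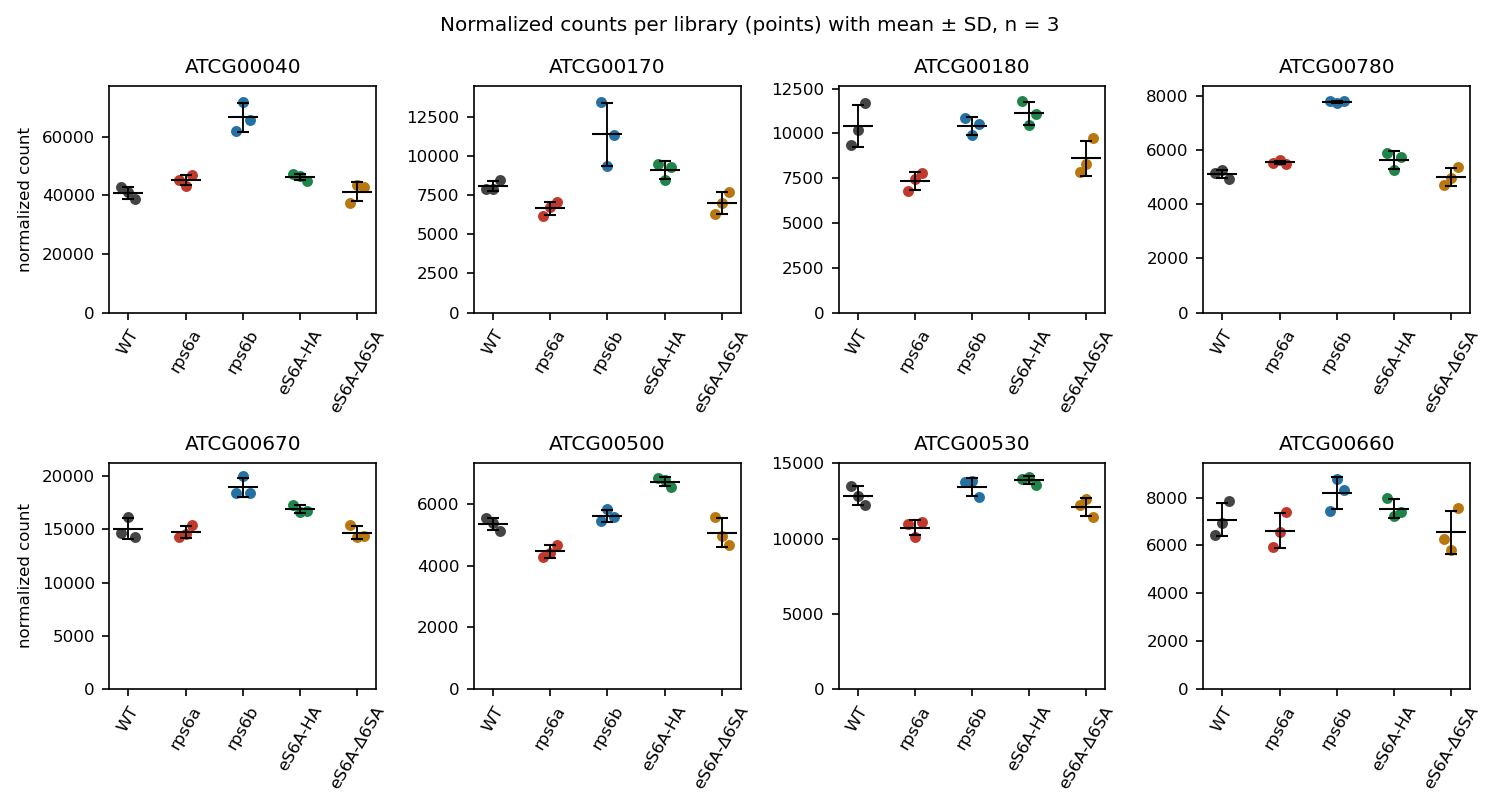
Normalized counts (y axis, from 0) of 8 plastid genes in each library (points), by genotype (x axis), with the mean and SD of 3 libraries (bars). ATCG00530 is cemA, ATCG00660 rpl20 and ATCG00670 clpP. For ATCG00040, ATCG00780 and ATCG00670 the rps6b points lie above all WT points, and for ATCG00180 the rps6a points lie below all WT points.

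The scale decided much of these counts. On the spike-in scale the median of all genes moved by 0.35 in rps6a against WT, by -0.06 in rps6b against WT and by 0.41 in rps6a against rps6b. Relative to that median, the members' median was -0.07 in rps6a and 0.24 in rps6b on the spike-in scale, and -0.08 and 0.24 as deposited. A scale factor moves all genes of a library nearly alike, so this measure could hardly change. Its likeness between scales is no support for either. In rps6b the direction was upward on every scale tried, with 11 members higher on the spike-in scale and 12 higher and 1 lower on the plastid-gene scale. Of all genes, 6.57% were called higher and 9.1% lower on the spike-in scale, and 6.8% higher and 22.7% lower on the plastid-gene scale. Of the 19 named rises, 10 passed under each of 18 alternatives, namely ATCG00040, ATCG00170, ATCG00650, ATCG01130, ATCG00760, ATCG00780, ATCG00790, ATCG00800, ATCG00810 and ATCG00820.

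**Figure D3:**
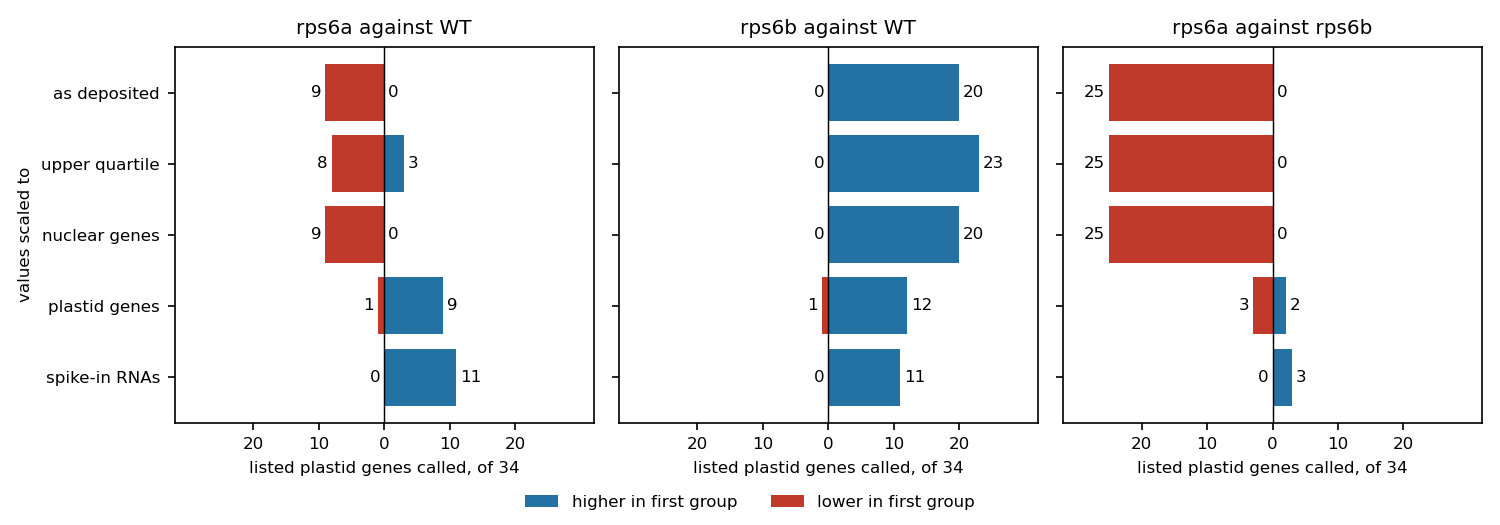
Number of the 34 tested plastid genes called higher (blue, to the right) or lower (red, to the left) in the first-named group (x axis) under 5 ways to scale the libraries (y axis). In rps6a against WT the bar turns from 9 lower as deposited to 11 higher on the spike-in scale, while in rps6b against WT it points to higher on every scale.

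Ratios within a library do not depend on the scale. The ratio of ATCG00170 to its neighbour ATCG00180 was 0.845, 0.772 and 0.725 in WT, 0.910, 0.902 and 0.905 in rps6a and 1.24, 0.950 and 1.08 in rps6b. Every library of both single mutants was above every WT library, and those of rps6b were above those of rps6a. The transgenic lines had ratios of 0.818 ± 0.020 (eS6A-HA) and 0.815 ± 0.029 (eS6A-Δ6SA; SD, n = 3), against 0.781 ± 0.060 for WT. These ratios were chosen after the values had been seen and carry no test.

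The ratio of ATCG00780 to ATCG00740, a pair chosen after its values were seen, was 0.454, 0.486 and 0.439 in WT, 0.528, 0.594 and 0.499 in rps6a and 0.581, 0.587 and 0.632 in rps6b. Both mutants lay above WT, and overlapped each other. ATCG00040 held 16.9 ± 0.67% of the summed level of the 40 genes in WT, 19.96 ± 0.38% in rps6a and 22.1 ± 1.19% in rps6b. The stretch from ATCG00740 to ATCG00820 held 16.0 ± 0.19%, 17.4 ± 0.30% and 17.2 ± 0.59%, and the stretch from ATCG00160 to ATCG00190 held 11.6 ± 1.07%, 9.65 ± 0.45% and 11.04 ± 1.23%. By this measure ATCG00040 took a larger share in both single mutants than in WT.

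Together the 40 genes took 6.83 ± 0.10% of the reads on plastid genes in rps6b (SD, n = 3) and 6.26 ± 0.22% in rps6a, against 4.74 ± 0.034% in WT. The share was 4.82 ± 0.33% in eS6A-Δ6SA and 4.81 ± 0.13% in eS6A-HA. Much of this moved with another plastid gene, ATCG00020, which holds a large share of plastid reads. With ATCG00020 left out, the shares in the same order were 9.95 ± 0.076%, 9.70 ± 0.22%, 8.61 ± 0.10%, 8.43 ± 0.29% and 8.38 ± 0.15%. The libraries of both single mutants stayed above those of WT in this measure too, with 9.46% as the lowest in rps6a and 8.71% as the highest in WT. All plastid genes together held 52.3 ± 0.28% of gene reads in rps6a and 56.5 ± 0.46% in rps6b, against 59.2 ± 0.49% in WT.

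The other 79 plastid genes, 69 of them tested, are given beside the members. In rps6a against WT, 1 rose and 38 fell, with a median of -0.32, where the members' median was -0.09. In rps6b, 13 rose and 2 fell, with a median of 0.06, where the members' median was 0.24. The difference between the 2 sets of genes was not tested. Over all genes, 10.4% rose and 10.8% fell in rps6a, and 11.6% rose and 11.7% fell in rps6b. In rps6a against rps6b, 0 of the 69 were higher and 42 lower, with a median of -0.38, close to the -0.36 of the members. Of all genes, 1.30% were called higher and 1.62% lower in that comparison. On the spike-in scale 10 of the 69 were higher and 2 lower in rps6a against WT. Of all genes, 35.1% were called higher and 1.82% lower there, so the count of higher plastid genes was below the background.

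The transgenic lines differed less from WT. In eS6A-HA, 2 of 34 members rose, 0 fell and 32 did not pass, where 0.796% of all genes were called, 0.551% higher and 0.245% lower. As deposited, all 30 well measured members had a positive value, and the members' median was 0.13, against 0.001 over all genes. The members' median was 0.04 on the spike-in scale and -0.04 on the plastid-gene scale, with -0.09 and -0.17 over all genes. Of the 69 other plastid genes tested, 64 had a positive value as deposited, with 5 called higher, 0 lower and a median of 0.19. ATCG00500 had 6840, 6778 and 6566 normalized counts in eS6A-HA and 5540, 5394 and 5138 in WT, without overlap. Its log2 difference was 0.33 (SE 0.07, limma adjusted p 0.011). ATCG00050 rose by 0.30 (SE 0.07, limma adjusted p 0.036). Neither passed on the spike-in or plastid-gene scale, where the limma count was 0, with 1 at an unadjusted p under 0.05 on each, and where 0.3% and 5.26% of all genes were called. The count was 0 when eS6A-HA replicate 1 or 2 or WT replicate 2 or 3 was left out, and 1 without WT replicate 1 or eS6A-HA replicate 3.

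In eS6A-Δ6SA against WT, 0 members rose, 1 fell and 33 did not pass, where 2.57% of all genes were called, 1.33% higher and 1.24% lower. The member was ATCG00190, with 5028, 5513 and 5962 normalized counts against 6434, 6349 and 7200 in WT, without overlap. Its log2 difference was -0.28 (SE 0.07, limma adjusted p 0.030). The count was 0 on the spike-in and plastid-gene scales (limma, with 0 and 3 at an unadjusted p under 0.05, and 1.56% and 2.41% of all genes called), 0 with only these 2 groups in the fit, 0 without eS6A-Δ6SA replicate 1 or 2, and 2 without WT replicate 1 or eS6A-Δ6SA replicate 3. The call of ATCG00190 was also lost without WT replicate 3.

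Between the transgenic lines, eS6A-Δ6SA against eS6A-HA, 0 members were higher, 7 were lower and 27 did not pass, where 2.63% of all genes were called, 1.23% higher and 1.40% lower. As deposited, all 30 well measured members had a negative value, and the members' median was -0.20, against -0.001 over all genes. Of the other plastid genes, 69 were tested, with 0 higher, 21 lower and a median of -0.22. The lower values were thus not particular to the members. They also depended on the scale. The members' median was 0.01 on the spike-in scale and 0.01 on the plastid-gene scale, with 0.21 over all genes on each. The lines also differed in the level of RPS6A given above, and its part in these values was not tested. ATCG00500 had 5590, 4957 and 4681 normalized counts in eS6A-Δ6SA, all below its 3 libraries of eS6A-HA given above. Its log2 difference was -0.41 (SE 0.07, limma adjusted p 0.00038). ATCG00050 differed by -0.40, ATCG00170 by -0.38, ATCG00180 by -0.37, ATCG00190 by -0.36, ATCG00640 by -0.33 and ATCG00330 by -0.30. Of the 7, 3 were neighbours in the stretch from ATCG00160 to ATCG00190. The count was 0 on the spike-in and plastid-gene scales, where the median of all genes moved by 0.21 (limma, with 0 and 2 at an unadjusted p under 0.05, and 5.09% and 15.5% of all genes called), 11 with only these 2 groups in the fit, and 4 without eS6A-HA replicate 1, when ATCG00170, ATCG00180 and ATCG00330 lost their call. ATCG00170 also lost its call without eS6A-HA replicate 3 or eS6A-Δ6SA replicate 1 or 2, and ATCG00330 without eS6A-Δ6SA replicate 2.

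**Figure D4:**
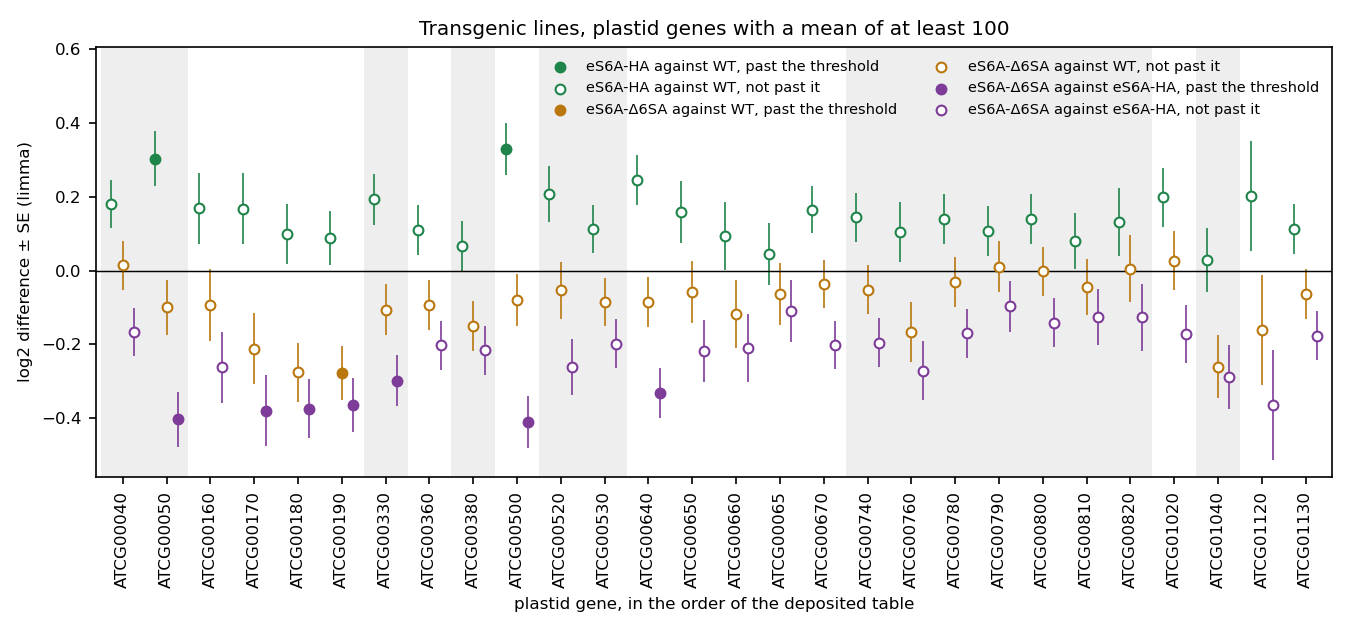
Log2 difference (y axis, limma, ± SE) of 28 plastid genes with a mean of at least 100 normalized counts, in the order of the deposited table (x axis), for eS6A-HA against WT (green), eS6A-Δ6SA against WT (orange) and eS6A-Δ6SA against eS6A-HA (purple). Filled points passed the adjusted p of 0.05. The 7 filled purple points lie between -0.41 (ATCG00500) and -0.30 (ATCG00330), and the filled orange point is ATCG00190 at -0.28.

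Across the 5 genotypes the order of the group means was read on the deposited scale. Of the 30 well measured members, 22 had their highest mean in rps6b and 8 in eS6A-HA. The lowest mean was in rps6a for 16, in eS6A-Δ6SA for 11 and in WT for 3. The ribosomal protein gene rpl20 illustrates the spread around such an order, with means of 8188 ± 667 normalized counts in rps6b (SD, n = 3), 7533 ± 391.8 in eS6A-HA, 7083 ± 702 in WT, 6620 ± 731 in rps6a and 6546 ± 902 in eS6A-Δ6SA. Neighbours in this order differed by less than the larger of their SDs, and rpl20 passed the test in no comparison. For clpP the means were 18950 ± 878 in rps6b, 16870 ± 387 in eS6A-HA, 15060 ± 994 in WT, 14750 ± 563 in rps6a and 14670 ± 627 in eS6A-Δ6SA, and the last 3 differed by less than their SD.

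Nuclear genes whose products work with the members were counted in 4 lists. Of the nuclear-encoded proteins of the plastid ribosome, 32 of 33 were tested. In rps6b, 22 rose, 0 fell and 10 did not pass, with a median of 0.39. In rps6a, 8 rose, 0 fell and 24 did not pass, with a median of 0.14. As deposited, 11.6% of all genes rose and 11.7% fell in rps6b, and 10.4% rose and 10.8% fell in rps6a. AT5G47190, a ribosomal protein L19 family gene, had 449 ± 60.5 normalized counts in WT, 760 ± 27.4 in rps6b and 602 ± 29.4 in rps6a (SD, n = 3), a rise of 0.77 and of 0.43 on the log2 scale (limma adjusted p 4.78e-08 and 0.00048). AT4G01310, of the L5 family, rose by 0.71 and 0.43, and RPL9 (AT3G44890) by 0.60 and 0.44. On the spike-in scale 29 were higher in rps6a and 16 in rps6b, and 0 lower in either. In rps6a that scale moved the median of all genes by 0.35 and 35.1% of all genes were called higher on it, against 6.57% in rps6b. Those shares also apply to the counts on the spike-in scale given for the lists below.

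In the transgenic lines the number of nuclear-encoded proteins of the plastid ribosome that passed depended on the scale. In eS6A-HA, 0 of 32 were called by limma, edgeR or DESeq2, with 3 at an unadjusted limma p under 0.05, while on the plastid-gene scale 4 were lower, where 4.9% of all genes were called lower. In eS6A-Δ6SA against WT, AT5G47190 rose by 0.43 and emb2394 (AT1G05190) by 0.29, and in eS6A-Δ6SA against eS6A-HA PRPL11 rose by 0.34 and EMB3126 by 0.31. In the latter comparison these 2 became 13 higher on the spike-in scale and 26 higher on the plastid-gene scale, with 0 lower. Of all genes, 1.23% were called higher there as deposited, 4.85% on the spike-in scale and 15.1% on the plastid-gene scale. In rps6a against rps6b, 7 were lower, where 1.62% of all genes were. Among the 7 were AT2G43030, of the L3 family, at -0.50, emb2184 at -0.41 and RPL27 at -0.35. That direction turned on the spike-in scale, where 5 were higher and 0 lower and 42.3% of all genes were called higher.

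The list of nuclear-encoded polymerases and sigma factors, which direct transcription of plastid genes, had 8 of 8 tested. In rps6a 3 fell and 0 rose, and in rps6b 4 fell and 0 rose, with medians of -0.29 and -0.36. Over all genes, 10.8% fell in rps6a and 11.7% in rps6b. SIGE, sigma factor E, had 1098 ± 113 normalized counts in WT, 666 ± 33.3 in rps6a and 644 ± 30.8 in rps6b. Both mutants were far below WT and close to each other. It fell by 0.72 in rps6a and by 0.77 in rps6b on the log2 scale (limma adjusted p 1.08e-06 and 3.08e-07). SCA3, the phage-type plastid polymerase, fell by 0.52 and 0.56, and AT5G15700, of the same polymerase superfamily, by 0.56 and 0.65. SCA3 also fell in eS6A-Δ6SA against WT, by 0.43. In rps6b 4 were lower on the spike-in scale too, while in rps6a 1 was lower there. In rps6a against rps6b 0 of 8 were called as deposited by limma, edgeR or DESeq2, also 0 at an unadjusted limma p under 0.05, and 6 were higher on the spike-in scale, where 42.3% of all genes were.

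Of the 12 proteins associated with the plastid-encoded polymerase, 3 rose in rps6b, namely FSD2 by 0.81, FSD3 by 0.73 and FLN1 by 0.54, and 0 fell. FSD2 and FSD3 are iron superoxide dismutases and FLN1 is a fructokinase-like protein. In rps6a, 0 of 12 were called as deposited by limma, edgeR or DESeq2, with 2 at an unadjusted limma p under 0.05, and 4 were higher on the spike-in scale, and FLN1 was lower in rps6a than in rps6b, by 0.54 on the log2 scale. Of the 24 partners of other members, 3 fell and 0 rose in rps6a and 4 fell and 4 rose in rps6b. As deposited, 10.4% of all genes rose and 10.8% fell in rps6a, and 11.6% rose and 11.7% fell in rps6b. The counts of falls among the partners were thus close to the background. BCCP2, a biotin carrier subunit of the plastid acetyl-CoA carboxylase to which AccD belongs, fell by 0.68 and 0.55. CcdA, of cytochrome c biogenesis, fell by 0.33 and 0.41, and EMB3144, an AAA-type ATPase, rose by 0.39 in rps6b. AT1G49380, also of cytochrome c biogenesis, fell by 0.44 in rps6a. In rps6a the partners turned to 11 higher and 0 lower on the spike-in scale, and in rps6b to 0 higher and 3 lower. In eS6A-Δ6SA against eS6A-HA, CLPP4, which codes for another subunit of the Clp protease, rose by 0.30. There 7 and 12 partners were higher on the spike-in and plastid-gene scales, where 4.85% and 15.1% of all genes were.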

How the data were processed

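Each deposited value is a signal, a count of reads that the authors divided by the size factor of its library. The table is named as normalized by DESeq2, per the file headers. The submitters' processing notes name STAR 2.7.6a, featureCounts 2.0.0, DESeq2 1.26.0 and TAIR10. Annotation, use of strand and treatment of reads that map more than once are not given in the sources used here, so reads of overlapping or antisense genes cannot be told apart. Per the labels' protocols, ribosomal RNA was depleted and External RNA Controls Consortium spike-in RNAs were added. The 77 spike-in rows were kept out of the gene tests. In each library 100% of values were whole multiples of a single step (tolerance 0.01), which gave back the reads.

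Limma 3.58.1 in R 4.3.3, with trend and robust moderation, was fitted on log2(normalized count + 1) to all 15 libraries and 16335 genes with a mean of at least 10. Fold changes are on that scale, which understates low genes. The test is two-sided, adjusted within each comparison by Benjamini-Hochberg. Alternatives were edgeR 4.0.16 and DESeq2 1.42.0 on the recovered reads, other scalings, pseudocounts, filters and samples, and a replicate block. With edgeR, 10 members were called in rps6a against WT (9 lower and 1 higher) and 20 in rps6b against WT. The test was checked on simulated data, with changes larger than those of the called members and no error of scale. That check therefore does not bear on changes as small as these or on the choice of scale. Replicates differed by more than sampling noise (chi-square per degree of freedom 1.72 to 5.50).

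The members and lists were chosen with earlier results of these data known. For 2 members single values are not reported here. All other called members are named, except in rps6a against rps6b, where only some of them are. Of each nuclear list, up to 3 called genes per comparison with the largest changes are named. A planned grouping of members by role was replaced by stretches of adjacent identifiers, because the reference, TAIR10.1, paired 5 of 40 identifiers with a product. Its build differs in name from the authors', so no coordinates or sequences are given. The root marker EXPA7 was not used here.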

Additional observations from a re-analysis of the deposited data

How the results depend on the processing

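On the spike-in scale the counts of members called were 11 in rps6a against WT (all higher, reversed), 11 in rps6b against WT, 3 in rps6a against rps6b (all higher, reversed) and 0 in eS6A-HA against WT, eS6A-Δ6SA against WT and eS6A-Δ6SA against eS6A-HA. On the plastid-gene scale they were 10 (mostly higher, reversed), 13, 5, 0, 0 and 0 in the same order. With only the 2 groups compared in the fit, the count was 0 in eS6A-Δ6SA against WT and 11 in eS6A-Δ6SA against eS6A-HA. Upper quartile scaling gave 3 higher and 8 lower in rps6a against WT. Counts under edgeR, DESeq2, nuclear-gene scaling, both pseudocounts and both other filters were within 1.5 times those reported. Leaving out 1 library gave 6 to 13 in rps6a against WT, 16 to 18 in rps6b against WT, 22 to 26 in rps6a against rps6b, 0 to 1 in eS6A-HA against WT, 0 to 2 in eS6A-Δ6SA against WT and 4 to 8 in eS6A-Δ6SA against eS6A-HA. The cause of these changes was not tested.

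Single members that were called as deposited changed sign on the spike-in scale. In rps6a against WT the log2 values became 0.078 (ATCG00170), 0.062 (ATCG00190), 0.091 (ATCG00330), 0.098 (ATCG00500), 0.044 (ATCG00520), 0.1003 (ATCG00530), 0.11 (ATCG00640) and 0.072 (ATCG01040). In rps6a against rps6b they became 0.055 (ATCG00050), 0.070 (ATCG00360), 0.111 (ATCG00380), 0.085 (ATCG00500), 0.034 (ATCG00520), 0.093 (ATCG00530), 0.0097 (ATCG00640), 0.058 (ATCG00670), 0.088 (ATCG00740), 0.016 (ATCG00790), 0.097 (ATCG00810), 0.072 (ATCG00820), 0.050 (ATCG01020) and 0.026 (ATCG01130). On the plastid-gene scale, the log2 values in rps6a against rps6b became 0.0022 (ATCG00360), 0.043 (ATCG00380), 0.017 (ATCG00500), 0.025 (ATCG00530), 0.020 (ATCG00740), 0.029 (ATCG00810) and 0.0048 (ATCG00820). None of these passed the test with the changed sign. Members without a call as deposited are not listed here. On the spike-in scale 11 members passed as higher in rps6a against WT and 3 in rps6a against rps6b, where 35.1% and 42.3% of all genes did.

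The groups share replicate numbers in the labels, but same-numbered libraries did not deviate together in every pair. Their correlations ran from -0.16 to 0.18 over 18 pairs. The 2 over 0.1 were between rps6a and WT, at 0.18 for replicate 1 and 0.14 for replicate 3, against 0.0029 for replicate 2, and 8 of 15 libraries correlated best with their own number. With the replicate block the counts were 10 in rps6a against WT, 21 in rps6b against WT, 28 in rps6a against rps6b, 2 in eS6A-HA against WT, 2 in eS6A-Δ6SA against WT and 10 in eS6A-Δ6SA against eS6A-HA.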
